A study of Mus musculus with 3 samples.

Results

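The family of miR-15, miR-16, miR-195 and miR-497 is a set of microRNAs (miRNAs, small RNAs that guide silencing complexes to messenger RNAs) made from the mouse hairpins Mir15a, Mir15b, Mir16-1, Mir16-2, Mir195a and Mir497a. Its members were taken as the reads of 18 to 25 nt that matched one of these 6 hairpins, of 1353 miRNA hairpins searched, exactly or with 1 to 2 bases at the 3′ end that the genome does not encode. Both arms of each hairpin were counted, the 5p arm from its 5′ side and the 3p arm from its 3′ side. This gave 11 named arms, 5 from the 5p side and 6 from the 3p side, since Mir16-1 and Mir16-2 give an identical 5p arm. Together they held 3956 of 5288470 miRNA reads in the library labelled siSrf1 and 3942 of 4605459 in the library labelled siSrf2.

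The cells were HL-1, a line of mouse atrial cardiomyocytes that contracts in culture, transfected with siRNA (9 µl at 20 µM, carried by 16 µl of Lipofectamine) and collected 48 h later. By their titles the 3 samples of the series received siNon, an unspecific siRNA, or siSrf1 or siSrf2, which target the gene of serum response factor (Srf), and the siNon library was not analysed here. Title and siRNA entry disagree within the same samples: the one titled siSrf1 has the entry Srf si2, and the one titled siSrf2 has the entry siNon. Groups follow the titles, each is 1 library of 1 cell line, and no difference below has a replicate check or a p-value. Intervals are exact 95% intervals for the counting of reads only, and leave out variation between cultures and preparations. The reads carry no molecular identifiers and so are not independent molecules. Even the counting error may therefore be wider than the intervals show. In RNA pooled from many cells, fewer cells of a type and less of an miRNA per cell cannot be told apart.

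A miRNA recognises its targets mainly through its seed, the bases that follow its first base, and the members of this family share theirs. They are known as brakes on the cell cycle, with cyclins and the checkpoint kinase Chek1 among their targets, and as repressors of the survival gene Bcl2. In the mouse heart, miR-195 rises after birth as cardiomyocytes stop dividing.

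The mature 5p sequences, from the RefSeq table built on GRCm38.p6, show what the family has in common, with the seed (bases 2 to 8) in capitals.

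miR-16-5p: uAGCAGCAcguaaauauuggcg
miR-195a-5p: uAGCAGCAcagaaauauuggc
miR-497a-5p: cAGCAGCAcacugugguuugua
miR-15b-5p: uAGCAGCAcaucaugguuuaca
miR-15a-5p: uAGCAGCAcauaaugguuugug

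All 5 carry the seed AGCAGCA, and they part company after it. Counted from the 5′ end, miR-16-5p and miR-195a-5p differ at 2 of 21 compared bases, G10A and U11G in that order. The pair miR-15b-5p and miR-15a-5p differs at 4 of 22 bases (C12A, A20G, C21U and A22G), of which 1 lies in the first 18. Between miR-16-5p and miR-497a-5p 11 of 22 bases differ, the most of any pair. These distances bear on the counts. Counted reads of miR-16-5p and miR-195a-5p had to match their own hairpin, which sets them apart at both G10A and U11G. That none was within 1 base of the other was therefore set by the matching and tests nothing. Reads that matched miR-16-5p except for U11G, 19 labelled siSrf1 and 17 labelled siSrf2, were not counted. For the other pair, 12 of 299 and 14 of 513 reads of miR-15b-5p (labelled siSrf1 and siSrf2) were within 1 base of miR-15a-5p. In the other direction, 2 of 202 and 4 of 196 reads of miR-15a-5p lay within 1 base of miR-15b-5p.

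The hairpins lie in 3 pairs on the NCBIM37 genome. Mir15a (14:62250864-62250947) and Mir16-1 (14:62250717-62250809) are on the minus strand of chromosome 14, 54 bases apart, in an intron of the long noncoding RNA Dleu2. Mir15b (3:68813678-68813775) and Mir16-2 (3:68813824-68813918) are on the plus strand of chromosome 3, 48 bases apart, in an intron of Smc4, which encodes a condensin subunit. Mir497 (11:70048219-70048302), which makes miR-497a, and Mir195a (11:70048544-70048637) are on the plus strand of chromosome 11, 241 bases apart, inside no other gene of the GENCODE vM1 annotation. Of 204 distinct family inserts, 1 also matched elsewhere in that genome, with 1 read.

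The family was a minor part of the miRNAs of these cells, and its total was similar in both libraries. Its reads made up 0.0748% of miRNA reads labelled siSrf1 and 0.0856% of those labelled siSrf2, or 748 and 856 reads per 1000000 miRNA reads (RPM). The log2 ratio of siSrf1 to siSrf2 was -0.19 (interval -0.26 to -0.13), a small difference whose direction depends on the scaling, since it came to 0.30 under TMM scaling, 0.25 under median-of-ratios scaling and 0.18 with miR-1a-3p left out of the total. The muscle miRNA miR-1a-3p alone took 62.6% and 51.5% of miRNA reads, so the share left to all others differed between the libraries. Among 265 arms with at least 50 reads over both libraries (measured arms) the median log2 ratio was -0.44, and the family's sum stood 0.25 above that median.

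None of the family's 6 measured arms passed the size rule used here, a difference of at least 2-fold with the whole interval on 1 side of 0. The rule was passed by 69 of all 265 measured arms (26%), every one of them higher in the library labelled siSrf2. With TMM factors 42 were higher labelled siSrf2 and 3 labelled siSrf1, and with median-of-ratios factors 44 and 3. The median log2 ratio of the 6 was -0.16, with 4 below 0 and 2 above, beside 215 below and 50 above among all measured arms. With TMM or median-of-ratios factors, 1 of the 6 was below 0 and 5 were above, and the median of all measured arms moved to 0.05 and 0.00.

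**Figure D1:**
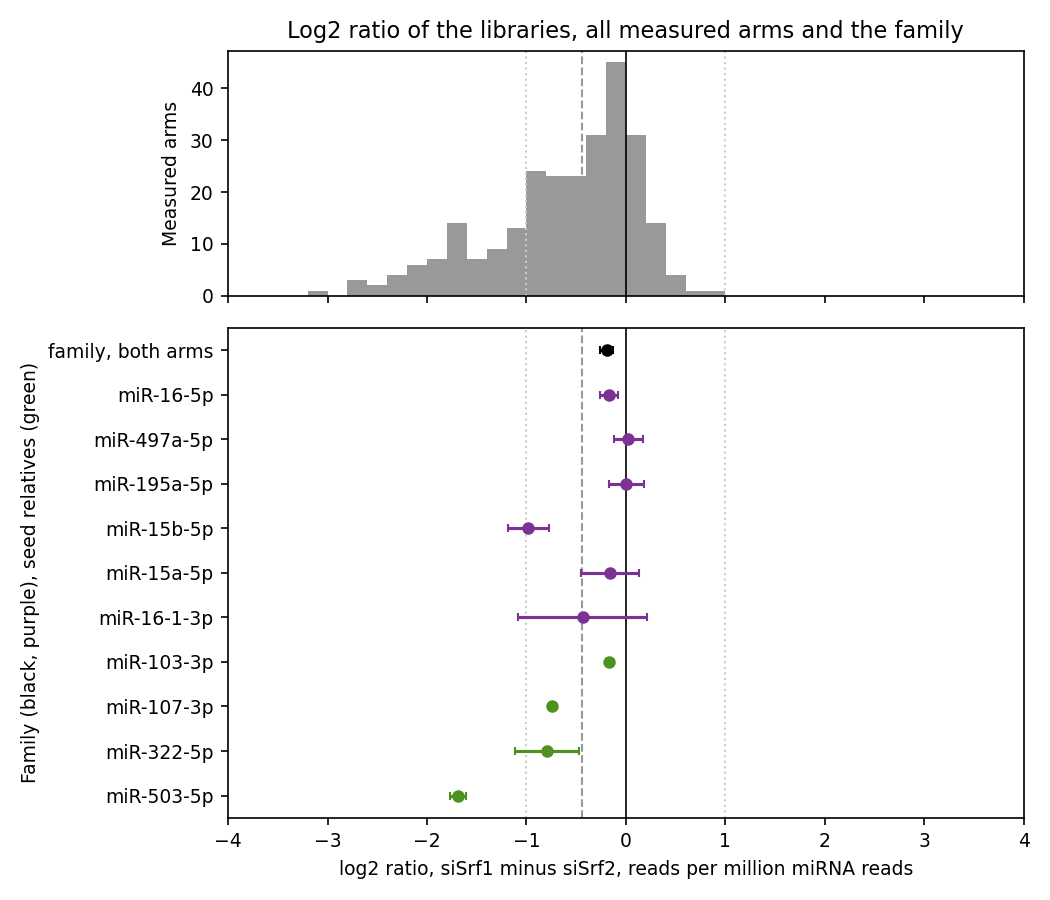
Log2 ratio of the libraries labelled siSrf1 and siSrf2, in RPM. The histogram above counts all 265 measured arms, and the points below are the family sum (black), its 6 measured arms (purple) and the 4 measured seed relatives (green) with 95% counting intervals; the dashed line is the median of all arms (-0.44) and the dotted lines mark 2-fold. miR-15b-5p (-0.98) lies near the 2-fold line and the other family arms lie between -0.43 and 0.02, and under TMM scaling every point moves right, the median of all arms to 0.05.

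miR-16-5p, the arm that both Mir16 hairpins share, was the most abundant member. It had 1967 reads labelled siSrf1 (372 RPM) and 1925 labelled siSrf2 (418 RPM), ranks 55 and 58 among 776 arms with any read. Its log2 ratio was -0.17 (-0.26 to -0.08), and with TMM factors 0.33, so the libraries cannot be ordered for it. Which hairpin made it cannot be told. Of its reads 1946 and 1911 fitted both, while 14 and 7 fitted only Mir16-1 and 7 and 7 only Mir16-2. Reads matching up to 2 bases past the reference end were 17 and 12. There the hairpins differ (T in Mir16-1, A in Mir16-2), and an added T or A cannot be told from an encoded one.

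The members from the chromosome 11 pair had nearly equal RPM in both libraries. miR-497a-5p had 864 and 741 reads, 163 and 161 RPM, with a log2 ratio of 0.02 (-0.12 to 0.17). miR-195a-5p, the member tied to cardiomyocyte cell cycle exit, had 563 and 489 reads, which is 106 RPM in both, with a log2 ratio of 0.00 (-0.17 to 0.18). That equality depends on the total: with TMM factors the ratios were 0.52 (0.37 to 0.66) and 0.50 (0.32 to 0.68), both higher in the library labelled siSrf1. Their proportion to each other needs no scaling: miR-195a-5p was 39.5% of the pair's reads (36.9 to 42) labelled siSrf1 and 39.8% (37 to 42.6) labelled siSrf2.

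Scaled to miRNA reads, miR-15b-5p had the largest difference among the family's measured arms. It had 299 reads (56.5 RPM) labelled siSrf1 and 513 (111 RPM) labelled siSrf2, 1.97-fold higher in the latter, with a log2 ratio of -0.98 (-1.19 to -0.77). That is just short of 2-fold, and it passed the rule with inserts of 20 to 24 nt (-1.01) and when sequences seen once were left out. It was below 0 under every scaling tried, and smallest in size with TMM factors (-0.48), where miR-497a-5p and miR-195a-5p differed slightly more, in the other direction. Its close relative miR-15a-5p had 202 reads (38.2 RPM) and 196 (42.6 RPM), with a log2 ratio of -0.16 (-0.45 to 0.13) and of 0.34 with TMM factors. Both have a GC content of 40.9%, and the part of base content in their ratios was not tested. Of the reads of these arms together, miR-15b-5p was 59.7% (55.2 to 64) labelled siSrf1 and 72.4% (68.9 to 75.6) labelled siSrf2, intervals that do not overlap and that do not depend on the scaling.

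Within a library, the order of levels was miR-16-5p, miR-497a-5p, miR-195a-5p, miR-15b-5p, miR-15a-5p for the one labelled siSrf1, with neighbouring Poisson intervals apart. In the one labelled siSrf2, miR-15b-5p (513 reads, 470 to 559) and miR-195a-5p (489 reads, 447 to 534) overlapped and the other neighbours were apart. miR-16-5p made up 50.5% (48.9 to 52.1) and 49.8% (48.2 to 51.4) of the family's 5p reads. The share of miR-15b-5p was 7.68% (6.86 to 8.56) and 13.3% (12.2 to 14.4), while that of the chromosome 11 pair was 36.6% (35.1 to 38.2) and 31.8% (30.4 to 33.3). An order between different miRNAs is an order of reads.

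**Figure D2:**
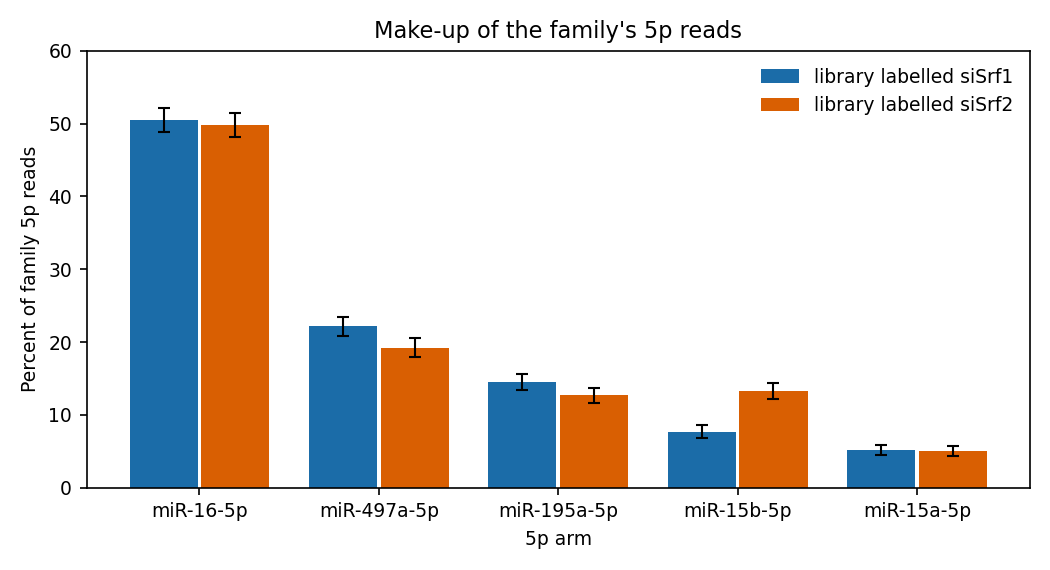
Percent of the family's 5p reads (3895 labelled siSrf1 and 3864 labelled siSrf2) that came from each 5p arm, with bars for the libraries and error bars for the exact 95% binomial interval. The bars of miR-16-5p stand at 50.5% and 49.8%, and those of miR-15b-5p at 7.68% and 13.3%.

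The 3p arms were rare. They held 61 reads labelled siSrf1 and 78 labelled siSrf2 of all 6, so that the 5p arm made up 98.5% (98 to 98.8) and 98% (97.5 to 98.4) of family reads. The sequences below, with bases 2 to 8 in capitals, are the 3p arms of the 2 Mir16 hairpins, which unlike their 5p arm can be told apart.

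miR-16-1-3p: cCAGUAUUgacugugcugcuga
miR-16-2-3p: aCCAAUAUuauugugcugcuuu

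miR-16-1-3p was the only measured 3p arm, with 40 reads (7.56 RPM) and 47 reads (10.2 RPM) and a log2 ratio of -0.43 (-1.08 to 0.21). It accounted for 40 of 44 and 47 of 53 reads of both Mir16 3p arms, or 90.9% (78.3 to 97.5) and 88.7% (77 to 95.7). These reads separate the Dleu2 copy from the Smc4 copy, and they do not say how the shared 5p arm divides between them. For miR-16-2-3p there were 4 and 6 reads, and a further 5 and 8 reads, not counted, carried the change T11C (reference base, position from the 5′ end of the mature sequence, base read). Counting them would lower the shares of miR-16-1-3p to 81.6% (68 to 91.2) and 77% (64.5 to 86.8), an alternative chosen after seeing the data. By comparison, the most frequent change in miR-16-5p, G19T, had 36 and 42 reads, or 1.83% and 2.18% of the reads counted for that arm.

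The remaining 3p arms had 16 reads or fewer in each library. miR-15a-3p had 7 and 16 reads, miR-15b-3p 6 and 8, miR-497a-3p 1 and 1, and miR-195a-3p 3 and 0. The limit taken for a count of 0 is 3 reads (0.651 RPM). Outside these counts, 3 and 5 reads without an adapter match began with the first 20 bases of miR-195a-3p. Its 3 and 0 therefore do not order the libraries. The 5p share was 96.7% (93.2 to 98.6) and 92.5% (88 to 95.6) for Mir15a, 98% (95.8 to 99.3) and 98.5% (97 to 99.3) for Mir15b, and 97.8% (97.1 to 98.4) and 97.3% (96.5 to 98) for miR-16. It was 99.9% in both for Mir497a, and 99.5% (98.5 to 99.9) and 100% (99.2 to 100) for Mir195a. For each hairpin these intervals overlapped between the libraries.

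**Figure D3:**
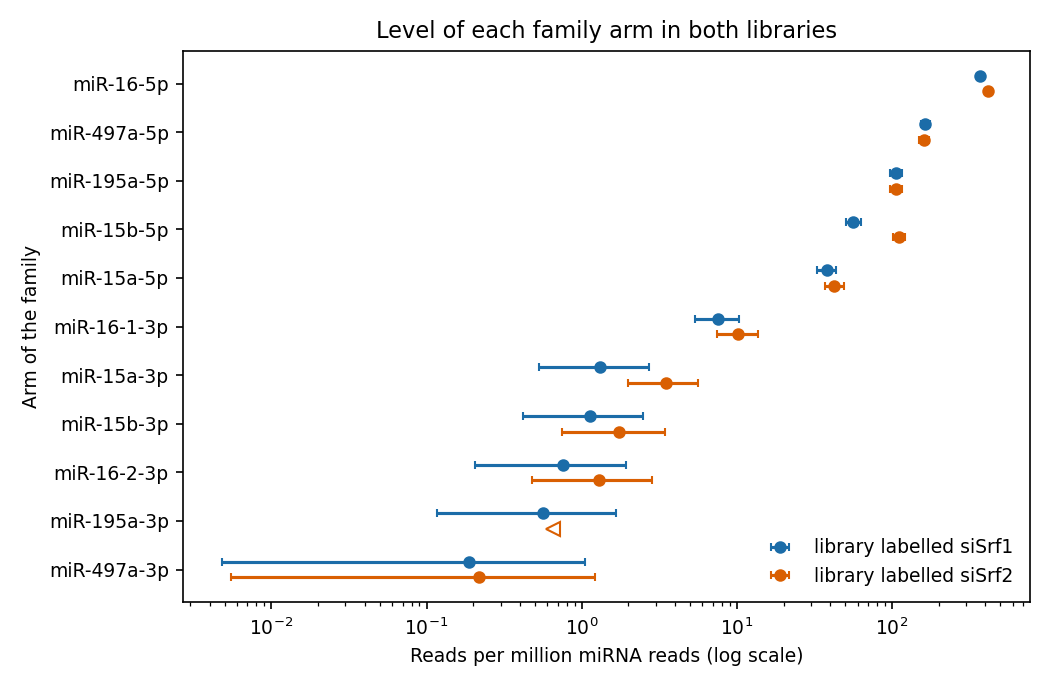
RPM of all 11 family arms on a log axis, with exact 95% Poisson intervals. The open triangle marks the level of 3 reads for miR-195a-3p in the library labelled siSrf2, where it had no counted read. The 5p arms span 38.2 to 418 RPM, miR-16-1-3p lies at 7.56 and 10.2 RPM, and the other 3p arms lie at 3.47 RPM or lower.

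The ends of the reads differed more between members than between libraries. The inserts that carry this are shown as read, in DNA letters, with untemplated bases in capitals.

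miR-16-5p, main: tagcagcacgtaaatattggcg
miR-195a-5p, main: tagcagcacagaaatattggca
miR-195a-5p, with A: tagcagcacagaaatattggcaA
miR-497a-5p, main: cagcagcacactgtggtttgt
miR-497a-5p, late start: agcagcacactgtggtttgt
miR-15b-5p, main: tagcagcacatcatggtttaca
miR-15a-5p, main: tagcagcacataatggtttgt

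The main insert of miR-16-5p was its RefSeq sequence, with 72.4% and 68.9% of reads, and so was that of miR-15b-5p, with 65.2% and 67.1%. By contrast, miR-195a-5p was read mainly 1 base longer than its RefSeq sequence (54.5% and 53%), and its 21 nt reference form made up 2.31% and 1.84%. The extra base is A, the next hairpin base, so an added A at that place counts as encoded. For miR-497a-5p (48.3% and 39.7%) and miR-15a-5p (46% and 51%) the main insert was 1 base shorter than the reference.

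Some 3′ ends also differed between the libraries beyond their counting intervals. The ends of miR-16-5p and miR-497a-5p given first were picked from all positions compared because their intervals do not overlap. The 3′ ends of miRNAs outside the family were not compared. An added base equal to the next hairpin base cannot be told from an encoded one, as for T after the miR-16-5p reference end. Reads of miR-16-5p that matched the hairpin up to 1 base past the reference end were 9.15% (7.91 to 10.5) labelled siSrf1 and 13.5% (12 to 15.1) labelled siSrf2. For miR-497a-5p, those ending 1 base before it were 50.9% (47.5 to 54.3) and 42% (38.4 to 45.6). Ends 2 bases past the reference were rare in miR-16-5p and did not follow, with 0.864% and 0.623%. The ends of miR-15b-5p at the reference position, 67.9% (62.3 to 73.2) and 69.8% (65.6 to 73.7), overlapped.

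**Figure D4:**
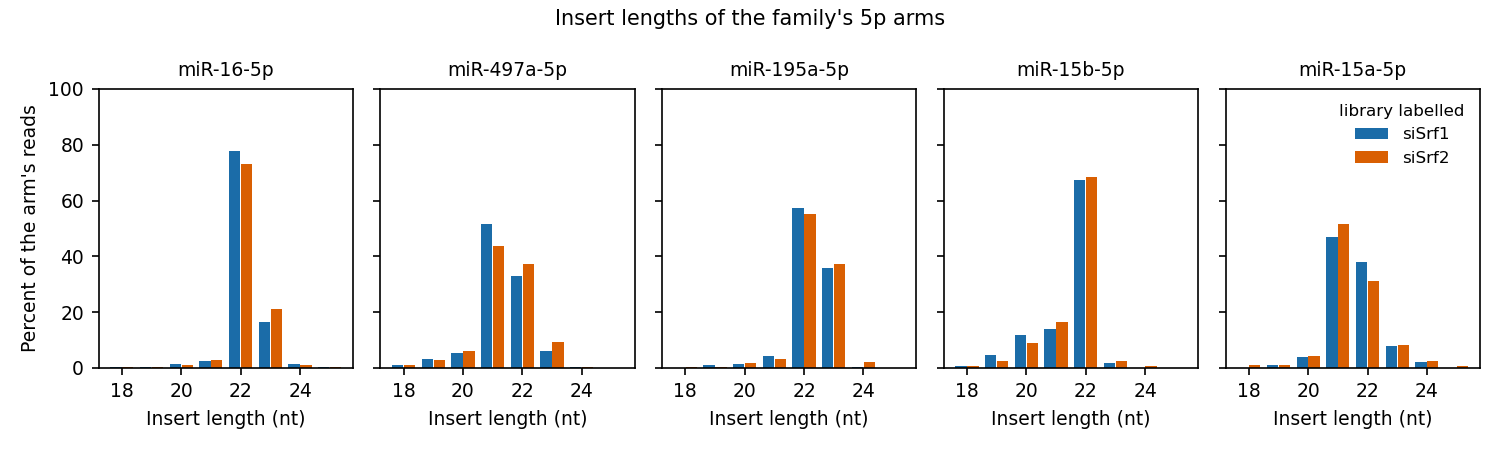
Percent of the reads of each 5p arm by insert length, from 18 to 25 nt, in the libraries labelled siSrf1 and siSrf2. Reads of 22 nt lead for miR-16-5p (77.8% and 73%), miR-195a-5p and miR-15b-5p, while 21 nt leads for miR-497a-5p (51.6% and 43.6%) and miR-15a-5p (47% and 51.5%).

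Within the family, untemplated bases stood out in miR-195a-5p. A single added A ended 150 of its 563 reads (26.6%, 23 to 30.5) labelled siSrf1 and 127 of 489 (26%, 22.1 to 30.1) labelled siSrf2. This was the fourth highest share, rank 4 of 159 arms with at least 200 reads, whose median was 5.9% and 5.96%. Of the seed relatives described below, miR-322-5p also had a high share, 25.5% and 19.9%. Lower shares were counted for miR-503-5p (4.16% and 4.28%) and for miR-103-3p and miR-107-3p (0.00531% or less). The share was 9.3% and 8.94% for miR-16-5p, 5.9% and 8.23% for miR-497a-5p, 5.94% and 4.59% for miR-15a-5p, and 2.68% and 3.12% for miR-15b-5p. An added A counts as encoded where the next hairpin base is A, as after the main insert of miR-497a-5p and the reference end of miR-195a-5p. These shares, and the median, do not count such reads as added A. A single added T was less frequent than an added A in miR-195a-5p (0.71% and 0.818%). Among the 5p arms it was counted at the highest share in miR-15a-5p (2.97% and 4.08%) and miR-497a-5p (3.12% and 3.24%). T is the next hairpin base after the main inserts of miR-16-5p, miR-195a-5p and miR-15b-5p, where an added T counts as encoded. The members therefore cannot be ranked by added T.

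**Figure D5:**
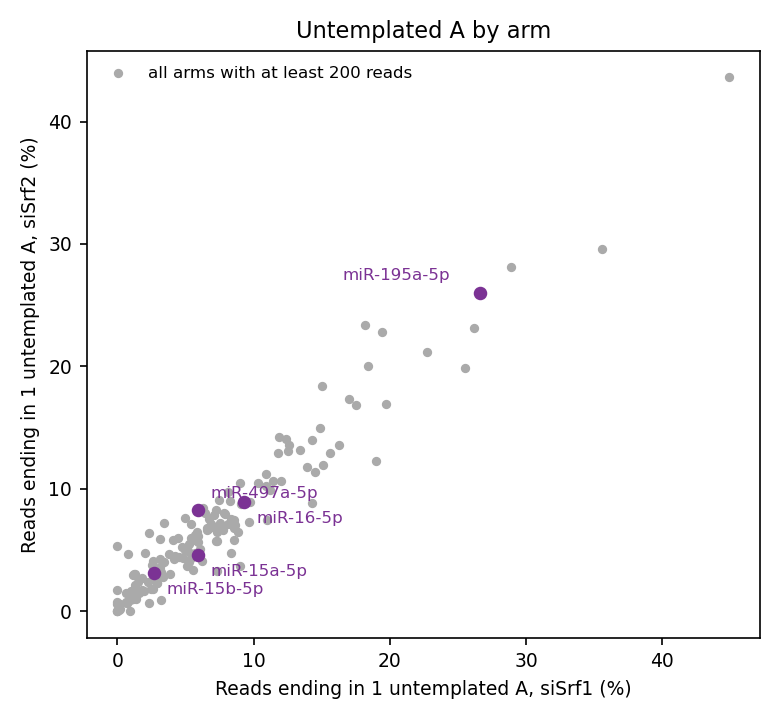
Percent of reads ending in 1 untemplated A in the library labelled siSrf1 (horizontal) and siSrf2 (vertical), with a point for each of the 159 arms with at least 200 reads and the family's 5p arms in purple. miR-195a-5p (26.6% and 26%) lies far from the other 4 members, which stay between 2.68% and 9.3%. An added A that equals the next hairpin base is not counted.

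The 5′ end, which sets the seed, was fixed in 4 of the 5p arms. Between 99% and 100% of the reads of miR-16-5p, miR-195a-5p, miR-15b-5p and miR-15a-5p began at the reference base, beside a median of 98.7% over the 159 arms. miR-497a-5p was looser, at rank 41 of the 159 arms counted from the lowest share at the main 5′ end. Of its reads, 62 of 864 (7.18%, 5.55 to 9.11) and 58 of 741 (7.83%, 6 to 10) began 1 base later. Bases 2 to 7 of that form read GCAGCA, the same as those of miR-103-3p, where the main form reads AGCAGC. Over bases 2 to 8 the late form (GCAGCAC) and miR-103-3p (GCAGCAU) differ. Among the 3p arms, miR-16-1-3p began 1 base earlier in 8 of 40 and 5 of 47 reads.

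Mir497 also left reads of its loop, the stretch between its arms. An 18 nt insert that fills the gap exactly, from the end of miR-497a-5p to the start of miR-497a-3p, was read 9 and 21 times, more often than miR-497a-3p itself.

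Mir497, loop: cggcactgtggccacgtc

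All of its reads together were 30, rank 1 of 394 hairpins with a gap of 15 to 28 nt, of which 14 had such a read and 3 had at least 10 (Mir497, Mir182 with 22 and Mir99a with 14). The sequence matched the NCBIM37 genome once. No such read was found for the other 5 family hairpins.

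A shorter stretch of the seed, bases 2 to 7 of miR-16-5p (AGCAGC, in capitals below), recurs in other mouse miRNAs, and in miR-103-3p and miR-107-3p it stands 1 position earlier. Of the 4 shown, miR-322-5p has the family's whole seed at bases 2 to 8.

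miR-503-5p: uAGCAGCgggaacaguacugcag
miR-322-5p: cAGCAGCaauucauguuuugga
miR-103-3p: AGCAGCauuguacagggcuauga
miR-107-3p: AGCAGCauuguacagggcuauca

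Of 8 such relatives 4 were measured and 1 passed the size rule, a share close to the 26% of all measured arms. miR-503-5p, a neighbour of miR-322 on the X chromosome that is also tied to cell cycle arrest, had 1611 and 4533 reads, 3.23-fold higher labelled siSrf2, with a log2 ratio of -1.69 (-1.77 to -1.61). miR-322-5p had 137 and 206 reads and a ratio of -0.79 (-1.11 to -0.47). miR-103-3p had 49679 and 48828 reads and a ratio of -0.17 (-0.19 to -0.16), far more reads than the whole family. For miR-107-3p the ratio was -0.74 (-0.76 to -0.71). Reads that fit both miR-103-3p and miR-107-3p were shared equally, which makes both ratios uncertain beyond their intervals. The other 4 had 1 read or none.

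Of 93 arms outside the family with at least 1000 reads, the 5 whose log2 ratio lay nearest to that of the summed family were miR-92a-3p (-0.19), miR-30a-3p (-0.18), miR-23b-5p (-0.20), let-7g-5p (-0.21) and miR-103-3p (-0.17). This likeness is over 2 libraries, and 21 of the 93 lay within 0.1 of the family. Other miRNAs known to restrain the cell cycle (let-7, miR-34, miR-26a, miR-29, miR-322 and miR-503) were taken as a list: 15 of 17 were measured and their median log2 ratio was -0.41, beside -0.44 for all measured arms. The rule was passed by 2 of the 15, both higher labelled siSrf2 (let-7c-5p, with 230816 and 403290 reads, and miR-503-5p), a smaller share than the 26% of all measured arms.

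Muscle markers led the marker lists by their sum, through miR-1a-3p. The 7 cardiac and skeletal muscle markers summed to 640872 and 531496 RPM, against 24784 and 24118 for fibroblasts and smooth muscle, 591 and 515 for endothelium, 87 and 95.1 for blood, 17.6 and 22.6 for neurons and 6.81 and 6.3 for epithelium, and all 3 markers of embryonic stem cells were at 0. The muscle sum is mostly miR-1a-3p (625585 and 514943 RPM, log2 ratio 0.28). The next muscle marker, miR-499-5p (13860 and 13763 RPM), was below miR-199a-3p of the fibroblast and smooth muscle list (17575 and 14539 RPM). The median log2 ratio over the 6 measured muscle markers was -0.22. miR-133a-3p (-1.05, past the rule), miR-133b-3p (-0.97), miR-208b-3p (-0.26) and miR-208a-3p (-0.18) were below 0, and miR-499-5p was at 0.01. In the fibroblast and smooth muscle list, miR-145a-5p (-2.20, past the rule) and miR-143-3p (-0.34) were below 0. The others, miR-199a-3p (0.27) and miR-214-3p (0.49), were above. The part of all these markers in the family's values was not tested.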

How the data were processed

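The deposited values are read counts, 1 per distinct 36 nt sequence in a library, per the file headers and the values themselves, which are whole and not scaled. Libraries came from an Illumina small RNA kit, per the labels' protocols, and an aligner or filter is not given in the sources used here. The libraries held 14911499 and 14518157 reads. The adapter, derived from the reads, was removed at its first 8 bases (or at least 4 at the read end), leaving 7748874 and 7013026 inserts of 18 to 25 nt. These were matched to 865 GENCODE vM1 hairpins (NCBIM37) and 488 further RefSeq hairpins (GRCm38.p6 table) with 10 bases of flank, with a templated part of at least 16 nt (Python 3.11.15, numpy 2.4.6, numba 0.67.0). Arms were named by the overlapping RefSeq mature sequence, and inserts fitting several arms (0.514% and 0.643% of miRNA reads) were shared equally. Loop reads were set apart after they were seen. RPM is reads per 1000000 miRNA reads. The log2 ratios have a pseudocount of 0.5 reads and a binomial interval conditional on both counts, shares Clopper-Pearson and levels Poisson intervals (scipy 1.17.1). Named miRNAs are every family arm, seed relatives with at least 50 reads and the 5 nearest in ratio. The miRNA let-7c-5p, the muscle, fibroblast and smooth muscle markers and the loops of Mir182 and Mir99a were named after their values were seen. A liver marker (1 arm; 7 and 13 RPM) was also counted. The members and lists were chosen with earlier results of these data known. The matching and the size rule were tested on simulated data. Alternatives were other scalings (edgeR 4.0.16, DESeq2 1.42.0, R 4.3.3; no test of either was run), read minimums, insert lengths, adapter, mismatch, tail, pseudocount, single-copy and multi-fit settings.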

Additional observations from a re-analysis of the deposited data

Results flagged for a closer look

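Reads without a recognisable adapter were outside the main counts. Among them, 724 reads labelled siSrf1 and 726 labelled siSrf2 began with the first 20 bases of a family mature sequence, which is family signal in unused reads above the 3 reads that a count of 0 allows. They comprised 401 and 388 reads of miR-16-5p, 158 and 150 of miR-497a-5p, 71 and 68 of miR-195a-5p, 41 and 68 of miR-15b-5p and 40 and 32 of miR-15a-5p. Of these 5p arms, miR-15b-5p was the one with more reads labelled siSrf2. Among the 3p arms, miR-16-1-3p had 7 and 12 such reads, miR-195a-3p 3 and 5, miR-16-2-3p 3 and 1, and miR-15b-3p 0 and 2. The count of 0 for miR-195a-3p labelled siSrf2 thus holds only for reads with an adapter match.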

How the results depend on the processing

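No paired analysis was possible because there was 1 library in each group. The log2 ratio of the summed family (-0.19) became 0.30 under TMM scaling, 0.25 under median-of-ratios scaling, 0.18 without miR-1a-3p and -0.09 with the total of all inserts of 15 nt or longer, and stayed between -0.23 and -0.17 under the other settings. TMM factors moved the median of all measured arms by 0.50. The number of miRNAs past the size rule (69) was 45 with TMM factors (42 higher labelled siSrf2), 112 with a minimum of 10 reads and 18 with a minimum of 500 reads. The number of family arms past it (0) was 1 with a minimum of 10 reads (miR-15a-3p), 1 with inserts of 20 to 24 nt and 1 with sequences seen once left out (both miR-15b-5p). Of 82 values of single-arm ratios under alternatives, 66 stayed within the interval of the reported value, and the 16 that left it came from other totals or factors. Depth limits the 3p arms other than miR-16-1-3p, whose counts were 16 or fewer.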
